A study of Mus musculus with 4 samples.

Results

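Monocyte-like cells low in C1q are the myeloid cells of this skin data set that carried transcripts of Csf1r and Lyz2 together with those of the monocyte genes Plac8, Ly6c2 or Fn1, and few or none of the complement genes C1qa, C1qb and C1qc. They were 394 of the 13124 cells that passed the cell filter (3.0%), and of 14795 cell barcodes in all. Control skin came from uninoculated C57BL/6 mice, and tumors grew after cells of the 2323 line had been injected into the flank of C57BL/6 mice. Live CD45+ cells were sorted after collagenase digestion, and each of 2 control skins and 2 tumors gave 1 droplet library of 3′ transcript ends. The 2323 line is a single line from a mouse model of skin carcinoma that carries K14rtTA, tetOCre and P53-/- among its alleles, and in which the keratin 14 promoter drives the recombination. Those alleles were thus in the injected cells and in none of the cells described here, and both tumors stand for 1 line. The inoculated mice were adults of both sexes according to the study's methods, and the labels do not give the sex of each library. Uty and Ddx3y, which lie on the Y chromosome, were found in the monocyte-like cells of all 4 libraries. The labels number 2 replicates in each group without saying how many mice gave each library, so every p-value below measures the spread between these libraries.

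Monocytes are made in the bone marrow, circulate in the blood and enter skin, where the classical kind, marked by Ly6C and the chemokine receptor CCR2, can become macrophages or antigen-presenting cells. C1q is made by mature tissue macrophages, so cells with Plac8 or Ly6c2 and little C1q are commonly placed early on that path. In inflamed tissue they take up signals such as interferons, which act through interferon regulatory factors and others on genes with short binding motifs near their start sites.

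A cell was a member when it had at least 1000 UMIs (unique molecular identifiers, each standing for 1 captured transcript), at most 15% of them mitochondrial, and raw counts of at least 2 for Csf1r, at least 10 for Lyz2, at least 5 for Plac8, Ly6c2 and Fn1 together and under 10 for the 3 C1q genes together. Cells with more than 1 UMI of Cd209a and Flt3 together or of Cd3e, or more than 2 of Top2a and Mki67 together, were left out. Values of 4 libraries are given below in the order control skin 1, control skin 2, tumor 1 and tumor 2. The whole libraries held 50932896, 52784293, 73904272 and 34893543 UMIs. They contained 18, 69, 219 and 88 members, with 291584, 1150379, 2649232 and 1259135 UMIs in all and a median of 17266, 14380, 11302 and 12522 UMIs per member. Control skin 1 thus rests on few cells. Between 1 and 7 cell barcodes were shared by any pair of libraries, and no shared barcode was a member. The median mitochondrial share of members was 1.68%, 1.17%, 1.56% and 1.27%.

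The members were chosen by the UMIs of the gate's genes, so the values of those genes are a description with no test. They are given as CPM, the counts of a library's members scaled to a common total, with TMM factors. Lyz2, the lysozyme of myeloid cells, stood at 13572, 12258, 8091 and 8970 CPM. Plac8 was at 1422, 1348, 2131 and 1350 CPM, and Ly6c2 at 551, 906, 792 and 415 CPM. Fn1, the matrix protein fibronectin, was at 767, 615, 237 and 800.1 CPM. Csf1r, the receptor for the macrophage growth factor CSF1, was at 247, 268, 325 and 345 CPM. C1qb remained at 17.4, 27.9, 59.6 and 64.3 CPM, and 13, 46, 85 and 34 members had no C1q UMI at all. Just inside the marker threshold, with 5 or 6 UMIs of Plac8, Ly6c2 and Fn1, were 0, 3, 7 and 2 cells, and 3, 7, 3 and 5 cells that met the other conditions lay just outside with 3 or 4. With 8 or 9 C1q UMIs there were 0, 2, 7 and 7 members, and with 10 or 11 there were 0, 1, 4 and 1 cells outside.

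Genes that the gate did not use bore out the label in part. Ccr2, the receptor that brings classical monocytes into tissue, was at 446, 588, 612 and 370 CPM before TMM scaling, against 231, 261, 304 and 218 CPM in C1q-high macrophages of the same libraries. Those macrophages were the 1793 cells with the same limits but at least 10 C1q UMIs and no condition on Plac8, Ly6c2 or Fn1. Chil3, Vcan and Hp, further genes of classical monocytes, had median levels of 147, 165 and 141 CPM over the libraries in monocyte-like cells and of 9.44, 11.8 and 5.09 CPM in C1q-high macrophages. The macrophage genes Apoe and Mrc1 ran the other way, with medians of 1158 and 163 CPM in monocyte-like cells and 7576 and 742 CPM in C1q-high macrophages. Because the same cells were used to draw the gate and to compare them, no test was made between the gates. Ly6c1, the neighbour of Ly6c2, had 3 UMIs in all members. The 15 genes of patrolling monocytes summed to 1426, 1206, 845 and 860 CPM. Of these, Ace, Treml4 and Nr4a1 had medians of 10.3, 20.4 and 214 CPM in the members and 0.410, 5.23 and 129.6 CPM in C1q-high macrophages, and Cd300e had 1.87 and 4.17 CPM.

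The gate held 2 kinds of member. Of the 394, 346 had at least 5 UMIs of Plac8 and Ly6c2 together. The other 48, the Fn1 members, had fewer and reached the marker threshold only with their Fn1 UMIs. The Fn1 members made up 27.8%, 21.7%, 5.48% and 18.2% of the 4 libraries, so they weighed more in control skin 1 than in tumor 1. Chil3 was at 196, 376, 148 and 180 CPM in the former and at 0, 5.81, 0 and 67.9 CPM in the latter. Retnla, a secreted protein of tissue macrophages under type 2 cytokines, had the opposite pattern with 0, 4.96, 5.20 and 14.7 CPM in the former and 865, 1875, 291 and 35.5 CPM in the latter. Lpl, which frees fatty acids from lipoproteins, stood at 33.4, 62.0, 26.8 and 17.9 CPM against 1218, 1043, 433 and 423 CPM. Mmp12, the elastase of macrophages, was at 23.9, 9.92, 98.3 and 103 CPM in the Plac8 and Ly6c2 members. It was at 1182, 724, 724 and 3700 CPM in the Fn1 members, of which there were only 5, 15, 12 and 16 per library. Other genes of classical monocytes differed less evenly. F13a1, a clotting factor subunit, was at 535, 365, 239 and 213 CPM in the Plac8 and Ly6c2 members and at 292, 453, 974 and 48.5 CPM in the Fn1 members, higher in the latter in control skin 2 and tumor 1. Ccr2 was at 530, 671, 614 and 461 CPM in the former and at 231, 392, 575 and 90.5 CPM in the latter.

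The first question of the design was whether tumors held more of these cells. Members made up 0.578% of filtered cells in control skin 1 (95% Clopper-Pearson interval 0.343 to 0.912), 2.16% in control skin 2 (1.69 to 2.73), 4.55% in tumor 1 (3.98 to 5.18) and 4.38% in tumor 2 (3.53 to 5.37). Both tumors lay above both control skins, with means of 4.47% ± 0.117 (SD, n = 2) and 1.37% ± 1.12 (SD, n = 2). An exact permutation test of 2 against 2 libraries, two-sided, gave p = 0.33, which is the smallest value that this design allows. The intervals cover counting error only, and the 2 control skins differed from each other by more than their intervals. Among cells with Csf1r and Lyz2, members were 5.79%, 11.8%, 11.3% and 10.2%, so that the groups overlapped (exact permutation p = 1.00, n = 2 per group). The larger share of the monocyte-like cells among all CD45+ cells of the tumors was thus not seen within the Csf1r and Lyz2 cells.

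**Figure D1:**
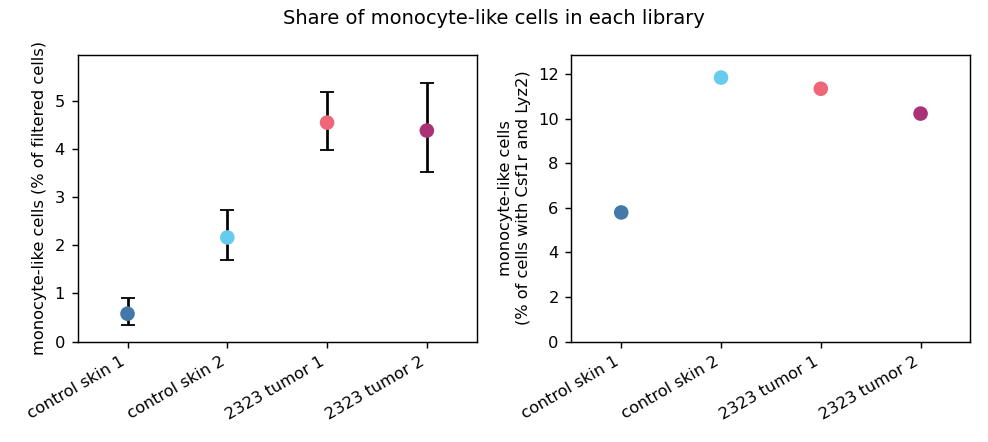
Share of monocyte-like cells in each of 4 libraries, in percent of all filtered cells (left, points with 95% Clopper-Pearson intervals) and in percent of the cells with Csf1r and Lyz2 (right, points). On the left the tumors sit at 4.55% and 4.38%, above control skins at 0.578% and 2.16%, and on the right control skin 2 is the highest.

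Transcription was then compared between tumors and control skins over the summed UMIs of the members of each library. Of 7645 genes tested with edgeR's quasi-likelihood test, 35 were higher in tumors (0.458% of genes tested) and 34 were lower (0.445%) at a Benjamini-Hochberg adjusted p under 0.05, and 848 had an unadjusted p under 0.05. Among the genes higher in tumors were interferon-induced genes, Il1b, Acod1, AA467197, AW112010, Ly6i and heat shock genes, and 15 of the 35 were on no functional list. Among the genes lower in tumors were Retnla, Fcrls, Cldn1, Tbc1d4 and transcripts of Langerhans cells and mast cells. In all 69 called genes the 2 groups did not overlap. Over all genes tested, both tumors lay above both control skins in 22.8% and below them in 20.2%, and the median log2 fold change was 0.02. The number of calls moved with each library left out. Without control skin 1 the test called 6 genes higher and 16 lower, and without control skin 2 it called 8 and 12. Without tumor 1 it called 128 and 82, and without tumor 2 it called 212 and 181.

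Many of the lower calls rested on few cells. For the 35 genes higher in tumors, the cell richest in the transcript held at most 32.6% of a gene's UMIs in either tumor library, with a median of 14.7% over genes. For the 34 genes lower in tumors, 1 cell held more than 50% of the UMIs of at least 1 control library for 29 genes, and the median over genes was 87.5%. The shares of the 2 directions are not comparable, since the control libraries held 18 and 69 members and the tumors 219 and 88. The largest share of Fcer1g, which was not called, was 15.6% in control skin 1 and 1.53% in tumor 1. The best known of the lower genes are transcripts of Langerhans cells, the antigen-presenting cells of the epidermis, and of mast cells. Of the 69 members of control skin 2, 4 had at least 5 UMIs of Cd207, and 1 had at least 5 of the mast cell proteases. Control skin 1 had 1 member of each kind, and the tumors had none. With these 7 cells left out, 16 genes were higher and 7 lower. Of the original calls, 15 higher genes and 7 lower genes were still called. All 35 higher genes could be fitted and kept their sign, while 20 of the 34 lower genes were no longer tested and the other 14 kept theirs.

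**Figure D2:**
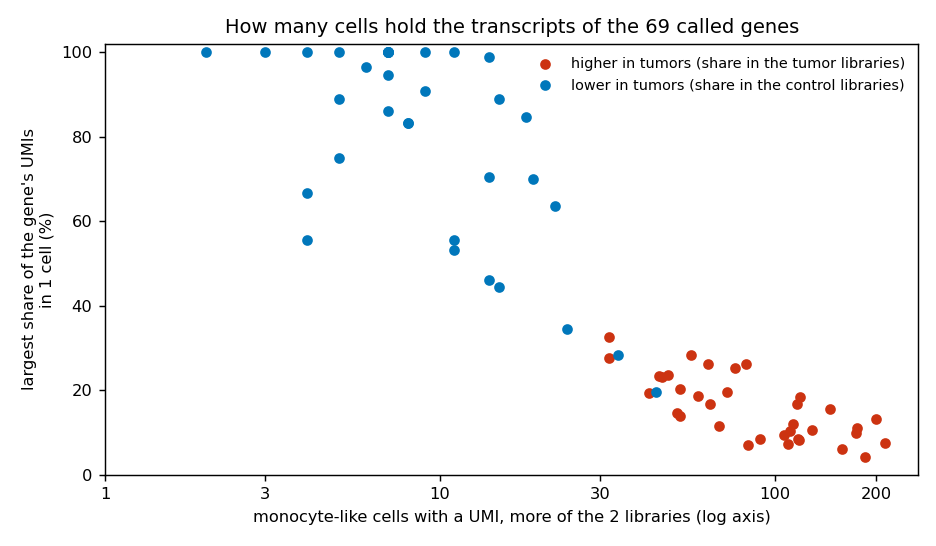
Cells behind the 69 genes called between tumors and control skins. Each point is a gene, placed by the number of monocyte-like cells with a UMI in the richer of the 2 libraries of the group where it is higher (log axis) and by the largest share of its UMIs in 1 cell, in percent. Genes higher in tumors (red) stay at or below 32.6%, and 29 of the genes lower in tumors (blue) lie above 50%, in libraries of 219 and 88 and of 18 and 69 members.

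Genes of the interferon gamma response were higher in tumors. Of 42 genes on a list of genes known to respond to this cytokine of T and NK cells, 34 were tested, 9 rose and none fell, against 0.458% of all genes tested. All 34 had a log2 fold change above 0, with a median of 1.75, and in 31 both tumors lay above both control skins, against 22.8% of all genes. Of the type I interferon list, 34 genes were tested and 1 rose, with a median of 1.07 and with both tumors above both control skins in 25. The lists share no gene. The count of 9 interferon gamma genes was 2 with control skin 1 or control skin 2 left out and 5 without the 7 cells named above. With the gate set on UMIs scaled to the same total in each cell it was 1. Heat shock genes, which can rise during tissue digestion, moved in the same direction and are described below. Their part in the result was not tested.

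Cxcl9, the chemokine that draws CXCR3-bearing T cells, had 0, 0, 1808 and 766 UMIs. In CPM this was 0, 0, 657 and 600, and the 2 tumors were close to each other. The pooled tumor level was at least 297-fold higher than the floor of 3 counts over the control group (edgeR adjusted p = 0.000737). Cxcl9 was found in 0 of 18 and 0 of 69 control members. These counts allow up to 16.7% and 4.35% of control members with a captured UMI, by counting error only, and do not limit the share of cells that express the gene. In tumors it was found in 34.7% and 36.4% of members. After each cell had been thinned to 2000 UMIs the tumor shares were 19.2% and 19.3%, against 1.91% and 2.52% in the T cells of the same tumors, which should lack this transcript. Median depths were 11302 and 12522 UMIs in members and 12865.5 and 9969 in those T cells. The richest cell held 18.8% and 25.2% of the tumor UMIs of Cxcl9, so most of the signal was spread over other cells.

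Some guanylate-binding proteins and immunity-related GTPases, which attack the vacuoles of intracellular microbes, rose too. Of 7 guanylate-binding protein genes tested 3 rose, of 5 GTPase genes 2 rose, and none fell, against 0.458% higher over all genes tested. Gbp2 was at 20.9, 25.2, 239 and 141 CPM (log2 fold change 2.99, SE 0.36, adjusted p = 0.0126). It was found in 16.7%, 20.3%, 54.3% and 55.7% of members, against 22.5% and 23.5% of tumor T cells. Gbp5 had 1, 1, 244 and 39 UMIs, a 49.0-fold ratio with a counting interval of 13.5 to 407 (adjusted p = 0.0395). Its call was lost with a marker threshold of 10 UMIs, under the gate on scaled UMIs and without the 7 cells named above. In these fits its log2 fold change was 5.10 to 6.00, against 5.29 in the main fit (edgeR adjusted p = 0.0651 to 0.124). With 1 library left out it was 4.08 to 5.96. Gbp4 had 0, 1, 130 and 49 UMIs, a 62.0-fold ratio with a counting interval of 11 to 2464 (adjusted p = 0.0117). In both genes tumor 1 was the higher of the tumors in CPM. Igtp stood at 6.97, 6.31, 46.8 and 36.0 CPM (log2 fold change 2.67, SE 0.45, adjusted p = 0.0389). Iigp1 had 0, 0, 80 and 43 UMIs and was at least 14.2-fold higher (adjusted p = 0.0187). Serpina3g, a protease inhibitor of activated leukocytes, had 1, 1, 74 and 29 UMIs, a 17.8-fold ratio with a counting interval of 4.82 to 149 (adjusted p = 0.0465).

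Further genes of the same pathway did not pass the threshold. Irf1, an interferon regulatory factor, was at 34.9, 49.6, 200.1 and 82.3 CPM (adjusted p = 0.177), and Socs1, a feedback inhibitor, at 3.49, 15.3, 37.4 and 31.3 CPM (adjusted p = 0.272). Cxcl10, a further CXCR3 ligand, was at 3.49, 115, 382 and 99.5 CPM with overlapping groups, and 1 cell held 90.6% of its UMIs in control skin 2. In Irf1 and Socs1 both tumors lay above both control skins. Of 13 JAK and STAT pathway genes tested none was called, 7 had both tumors above both control skins, against 22.8% of all genes, and the median log2 fold change was 0.42. Stat3 was at 523, 481, 343 and 520 CPM with overlapping groups. Of the type I list, Isg15, a ubiquitin-like protein, rose from 62.7 and 136 to 398 and 450 CPM (log2 fold change 2.00, SE 0.33, adjusted p = 0.0374). In the Plac8 and Ly6c2 members Isg15 was at 66.8, 172, 437 and 591 CPM. The Fn1 members showed no rise, at 48.7, 34.9, 27.1 and 42.0 CPM from only 4, 12, 4 and 13 UMIs. Rsad2, which blocks viral replication, was at 136, 224, 479 and 300.1 CPM (adjusted p = 0.237). The genes of highest level on this list, Ifi27l2a and Ms4a4c, had log2 fold changes of -0.03 and 0.23 with overlapping groups.

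**Figure D3:**
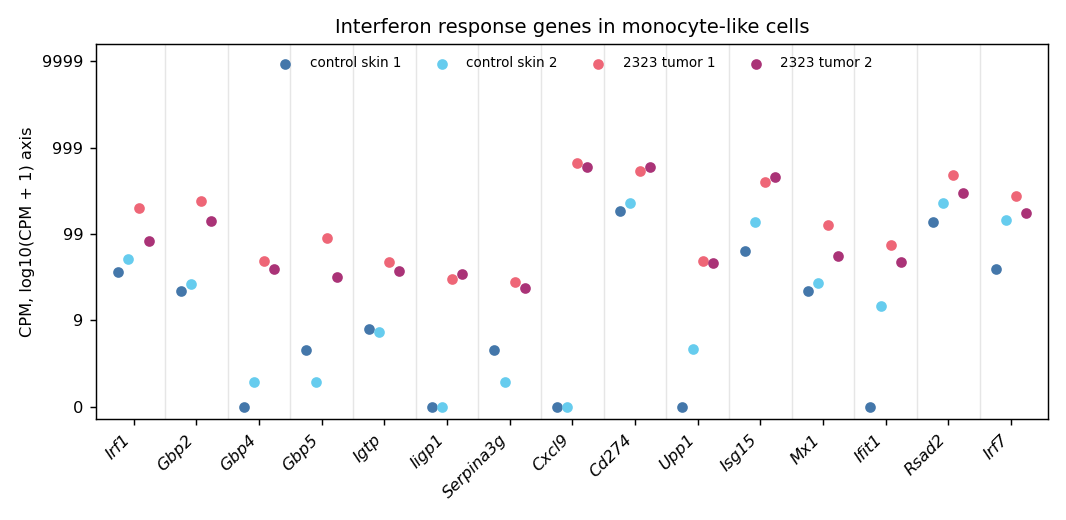
CPM of 15 interferon response genes in the monocyte-like cells of each library, on an axis of log10(CPM + 1), with 1 point per library. Cxcl9 and Iigp1 sit at 0 in both control skins. The 15 genes are a selection in which both tumors lie above both control skins. Genes of the same lists with overlapping groups, such as Cxcl10, Ifi27l2a and Ms4a4c, are not drawn. Both tumors lay above in 31 of 34 interferon gamma and 25 of 34 type I genes tested, against 22.8% of all genes.

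The start sites of the called interferon gamma genes were searched for known motifs. Windows of 300 bases (250 before to 50 after each start, RefSeq, build GRCm38.p6) were found for 7 of the 9 called genes, 9 windows in all, and were searched on both strands for the interferon-stimulated response element (TTTC, 2 bases of any kind and TTTC again) and the gamma-activated site TTCNNNGAA. The former was in 3 of the 9 windows and in 3.44% of 32851 windows of all genes, and the latter in 3 of the 9 and in 8.30% of all. In 30 windows of the whole interferon gamma list, called or not, the shares were 46.7% and 30%. In 33 windows of the type I list they were 48.5% and 18.2%, so the motifs were not particular to the called genes. No match was found for Cxcl9, Cd274 and Upp1. Windows of 3 genes described above are printed with each match in capitals, and Serpina3g, with 1 match of the second motif, is not printed. For Gbp5 (chr3:142496684-142496983, plus strand) and Igtp (chr11:58199306-58199605, plus strand) both motifs were found, and for Gbp2 (chr3:142620413-142620712, plus strand) the first. In Igtp and Gbp5 the 2 motifs do not overlap. A match is a run of letters, and binding was not measured.
Gbp5: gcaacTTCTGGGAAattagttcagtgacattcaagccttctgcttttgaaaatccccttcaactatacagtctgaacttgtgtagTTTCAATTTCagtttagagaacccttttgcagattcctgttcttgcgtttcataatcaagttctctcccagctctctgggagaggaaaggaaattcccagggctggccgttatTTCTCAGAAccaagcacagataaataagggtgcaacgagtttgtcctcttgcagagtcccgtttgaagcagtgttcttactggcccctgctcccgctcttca
Igtp: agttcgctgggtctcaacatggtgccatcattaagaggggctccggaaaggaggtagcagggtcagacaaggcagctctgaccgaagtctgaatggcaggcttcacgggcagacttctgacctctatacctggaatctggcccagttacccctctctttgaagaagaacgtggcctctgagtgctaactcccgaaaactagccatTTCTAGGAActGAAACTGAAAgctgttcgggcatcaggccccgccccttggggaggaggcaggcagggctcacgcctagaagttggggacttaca
Gbp2: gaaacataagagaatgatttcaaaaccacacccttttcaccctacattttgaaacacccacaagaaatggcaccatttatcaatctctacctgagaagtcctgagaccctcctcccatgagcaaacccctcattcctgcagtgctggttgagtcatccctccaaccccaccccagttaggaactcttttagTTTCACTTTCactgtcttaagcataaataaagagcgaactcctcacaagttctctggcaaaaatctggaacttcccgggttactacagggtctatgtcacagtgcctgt

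Ligands that restrain T cells rose as well. Cd274, which encodes PD-L1, was at 181, 228, 541 and 593 CPM (log2 fold change 1.45, SE 0.23, adjusted p = 0.0317). Pdcd1lg2, which encodes PD-L2, was at 13.9, 11.7, 62.1 and 143 CPM (log2 fold change 3.03, SE 0.52, adjusted p = 0.0418). The Pdcd1lg2 call was lost with a marker threshold of 10 UMIs, a gate without Fn1 or fewer than 3 C1q UMIs. It was also lost under the gate on scaled UMIs and without the 7 members rich in Cd207 or mast cell proteases. In these fits the log2 fold change was 2.60 to 3.01 (edgeR adjusted p = 0.0552 to 0.0951). The costimulator Cd86 stayed within overlapping groups at 509, 726, 546 and 604 CPM. Of 13 genes of this list tested, 2 rose, against 0.458% of all genes tested, and none fell. Antigen presentation genes were not called. All 9 genes of MHC class I had a log2 fold change above 0, with a median of 0.68, and H2-K1 was at 593, 724, 996 and 1127 CPM (adjusted p = 0.289). The 8 class II genes tested had a median of 0.16, and H2-Ab1 was at 3670, 3068, 3653 and 4415 CPM with overlapping groups.

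Of 18 genes tested on the list of inflammatory cytokines 1 rose, Il1b, against 0.458% of all genes tested. None fell, and the median log2 fold change was 0.13. Il1b, the cytokine interleukin 1 beta, was at 418, 439, 1921 and 2306 CPM, with similar values within each group (log2 fold change 2.30, SE 0.23, adjusted p = 0.00674). It was found in 44.4%, 55.1%, 79.9% and 87.5% of members and, in tumors, in 9.57% and 17.6% of T cells. Acod1, AA467197, AW112010, Ly6i and Clec4n, named for the size of their change, rose too. Acod1, which makes itaconate, had 1, 10, 400 and 251 UMIs, or 3.49, 9.01, 145 and 197 CPM (log2 fold change 4.46, SE 0.40, adjusted p = 0.00605). AA467197, a small mitochondrial protein induced in inflammation, was at 0, 4.51, 143 and 270 CPM (log2 fold change 5.84, SE 0.60, adjusted p = 0.00674). AW112010, a transcript induced by microbial products, was at 3.49, 21.6, 235 and 220 CPM (log2 fold change 3.78, SE 0.43, adjusted p = 0.00944). Ly6i, a surface protein of the Ly6 family, was at 20.9, 11.7, 160.1 and 159 CPM (log2 fold change 3.48, SE 0.34, adjusted p = 0.00605). Clec4n, which encodes the fungal receptor dectin-2, was at 34.9, 49.6, 192 and 374 CPM (log2 fold change 2.66, SE 0.39, adjusted p = 0.0201). Of the list's other genes, Tnf was at 59.3, 63.1, 76.3 and 111 CPM (adjusted p = 0.518), and Nfkbia at 457, 539, 545 and 576 CPM.

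Of 24 chemokine and chemokine receptor genes tested, 2 rose, against 0.458% of all genes tested. These were Cxcl9 and Cxcl16, a membrane-bound chemokine for CXCR6. Cxcl16 was at 80.2, 55.9, 270 and 350.3 CPM (log2 fold change 2.25, SE 0.29, adjusted p = 0.0145). The neutrophil attractant Cxcl2 was at 3911, 4173, 1729 and 3563 CPM and Ccl6 at 1384, 1208, 748 and 1004 CPM, below both control skins in both tumors without passing the threshold (adjusted p = 0.573 and 0.436). Ccl5 was at 3.49, 114, 288 and 316 CPM (adjusted p = 0.275), and 1 cell held 90.5% of its UMIs in control skin 2. Il21r, the receptor for the T cell cytokine interleukin 21, rose from 17.4 and 11.7 to 62.1 and 77.6 CPM (log2 fold change 2.37, SE 0.38, adjusted p = 0.0314). It was the one gene called among 21 cytokine receptors, against 0.458% higher over all genes tested. Mif was at 105, 138, 455 and 462 CPM (log2 fold change 1.89, SE 0.24, adjusted p = 0.0146). Bcl2a1a, a survival gene, was at 3.49, 11.7, 73.0 and 75.2 CPM (adjusted p = 0.0198). It has near-identical copies among which counting may have split reads.

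Heat shock genes made up a further group. Of 21 immediate early and heat shock genes tested, 5 rose, against 0.458% of all genes, and none fell, and the median log2 fold change was 0.31. The chaperone Hsph1 was at 38.3, 88.3, 614 and 430.2 CPM (log2 fold change 2.91, SE 0.37, adjusted p = 0.0145). Hsp90aa1 was at 997, 878, 3290 and 2643 CPM (log2 fold change 1.66, SE 0.24, adjusted p = 0.0189), and Hspa1a at 418, 555, 3019 and 1572 CPM (log2 fold change 2.23, SE 0.34, adjusted p = 0.028). Hspa1a has a near-identical copy, Hspa1b, which was at 446, 566, 2579 and 1250 CPM (adjusted p = 0.0586). Dnaja1 rose to 1120 and 862 CPM from 258 and 358 CPM (adjusted p = 0.0294). The immediate early gene Fos was at 711, 841, 893 and 328 CPM, and Jun at 551, 616, 1072 and 362 CPM, both with overlapping groups. Tumor 1 was above tumor 2 in each gene given so far in this paragraph, but not in the whole list. Hspa8, the list's most abundant gene, was at 1903, 2055, 3064 and 3498 CPM. All 4 suspensions were digested in the same way according to the labels, and the part of handling in these values was not tested.

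Of 20 classical monocyte genes tested none passed the threshold, the median log2 fold change was -0.59, and in 13 both tumors lay below both control skins, against 20.2% of all genes. F13a1 was at 474, 405, 269 and 170.1 CPM (adjusted p = 0.2), and Vcan at 240.5, 184, 146 and 132 CPM (adjusted p = 0.419). Ccr2 was at 453, 609, 589 and 365 CPM with overlapping groups. The list's genes of highest level, Thbs1 and S100a6, had log2 fold changes of 0.05 and -0.24. Of 13 patrolling monocyte genes 1 fell, against 0.445% of all genes tested. Ear2, an eosinophil-type ribonuclease, was at 69.7, 111, 12 and 14.9 CPM (log2 fold change -2.82, SE 0.36, adjusted p = 0.0145). With Fn1 left out of the gate its log2 fold change was -0.60 (adjusted p = 0.815). The scavenger receptor Cd36 was at 352, 270.3, 74.8 and 198 CPM (adjusted p = 0.337).

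Of 25 macrophage maturation genes tested none was called, and the median log2 fold change was 0.31, with 14 above 0 and 11 below. Apoe was at 1098, 911, 1670 and 1219 CPM (adjusted p = 0.497) and Lgals3 at 3057, 2730.3, 1987 and 3370 CPM. Mertk, a receptor for dying cells, was at 0, 1.80, 22.2 and 10.2 CPM (adjusted p = 0.156). Adgre1, which encodes F4/80, was at 160.3, 207.3, 115 and 65.0 CPM (adjusted p = 0.243). Of 26 glycolysis and hypoxia genes none was called, with a median of 0.55 and both tumors above both control skins in 14, against 22.8% of all genes. Gapdh was at 861, 655, 1469 and 1252 CPM (adjusted p = 0.204) and the glucose transporter gene Slc2a1 at 59.3, 91.9, 217 and 194 CPM (adjusted p = 0.0731). Of 6 Fc receptor genes none was called, and Fcgr4 was at 17.4, 17.1, 110 and 52.5 CPM (adjusted p = 0.0811).

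**Figure D4:**
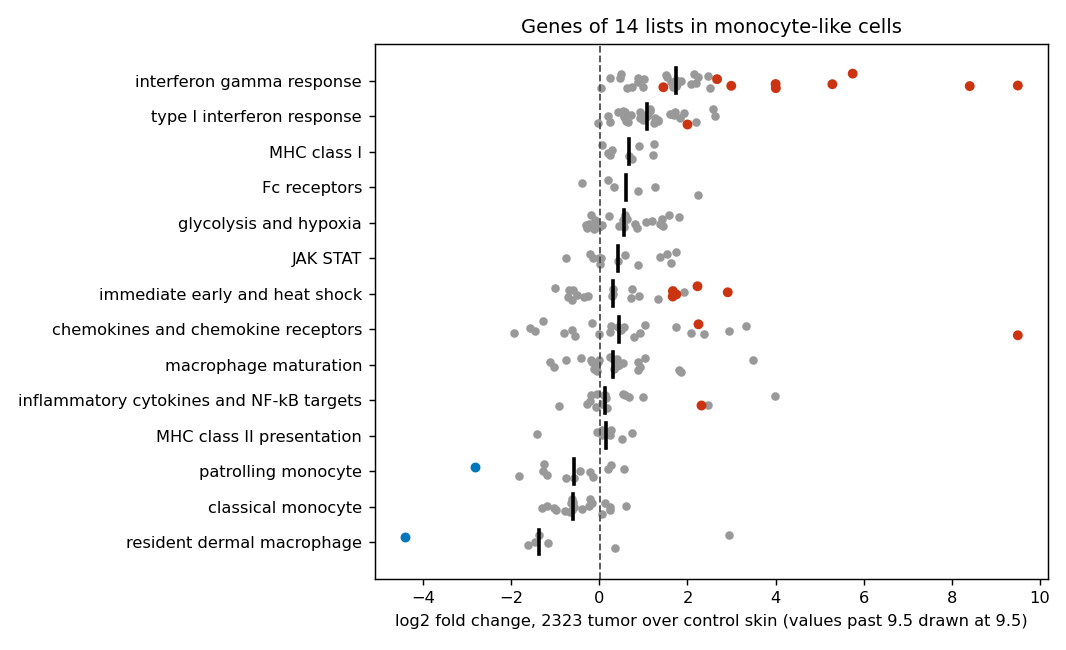
Log2 fold change (2323 tumor over control skin) of the tested genes of 14 lists in monocyte-like cells. Each point is a gene, red or blue where its adjusted p was under 0.05 and grey otherwise, the thick bar is the list's median and the dashed line the median of all genes tested (0.02). Cxcl9 is drawn at the edge of the axis. The interferon gamma list has all 34 genes above 0, and the classical monocyte list has its median at -0.59.

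Retnla, Fcrls, Lpl and Clec4b1 fell. Retnla was at 247, 585, 20.3 and 19.6 CPM (log2 fold change -4.41, SE 0.43, adjusted p = 0.00605). In control skin 1 a single cell held all 71 of its UMIs, and in control skin 2 it was found in 11 cells. Fcrls, an Fc receptor-like gene of resident macrophages, was at 164, 165, 8.35 and 18.8 CPM (log2 fold change -3.69, SE 0.38, adjusted p = 0.00674). It was found in 5, 11, 5 and 4 cells. Lpl was at 373, 369, 47.6 and 116 CPM (log2 fold change -2.21, SE 0.39, adjusted p = 0.0493), and the lectin gene Clec4b1 at 181, 91.0, 16 and 6.27 CPM (adjusted p = 0.0187). In the control skins, the Fn1 members held all 71 and 645 of 649 Retnla UMIs and 100 of 107 and 359 of 409 Lpl UMIs. In the tumors they held 43 of 56 and 11 of 25 Retnla UMIs and 64 of 131 and 131 of 148 Lpl UMIs. With Fn1 left out of the gate, Retnla and Fcrls were too low to be tested, and Lpl had a log2 fold change of -1.22 (adjusted p = 0.278). Of 7 resident dermal macrophage genes tested, Retnla was the one called, against 0.445% lower over all genes tested. Mgl2 was at 237, 112, 38.1 and 71.3 CPM (adjusted p = 0.169).

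Markers of other cell types made up 6 of the 34 genes lower in tumors. Of 4 Langerhans cell markers tested, Cd207, Epcam and Mfge8 were called lower, against 0.445% of all genes tested. The summed level of the 4 was 356, 326, 19.97 and 32.1 CPM. Cd207, which encodes langerin, had 72, 165, 0 and 1 UMIs, a 684-fold ratio with a counting interval of 122 to 27123 (adjusted p = 0.00184). The richest cell held 88.9% of them in control skin 1 and 55.2% in control skin 2. Cd207 was found in 33.3% and 21.7% of control members and in 28.5% and 21.0% of control T cells, which should lack it. Thinned to 2000 UMIs, the shares were 11.1% and 5.80% of members and 7.65% and 5.91% of T cells, whose median depths were 10880 and 11038 UMIs. Its share in members was thus at the level of background, apart from the richest cells. Among genes on no marker list, Cldn1, a tight junction protein, was at 66.2, 38.7, 0 and 0 CPM, at least 59.6-fold lower in tumors (adjusted p = 0.00923), and Tbc1d4, which regulates glucose transport, at 352, 177, 2.54 and 12.5 CPM (adjusted p = 0.0117). In control skin 1, 1 cell held 94.7% of the Cldn1 and 99% of the Tbc1d4 UMIs. Mfge8, Pxdc1, Atp8b1 and Cacnb2 were lower too (adjusted p = 0.0152, 0.00944, 0.032 and 0.00605), and 1 cell of control skin 1 held 84.6%, 90.9%, 96.6% and 86.2% of their UMIs.

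Of 4 mast cell markers tested, Mcpt4, Cpa3 and Cma1 were called lower, against 0.445% of all genes tested. The summed level of the list was 181, 588, 2.18 and 10.2 CPM, with the basophil marker Mcpt8 at 0. Mcpt4, a chymase of connective tissue mast cells, had 27, 359, 2 and 1 UMIs, a 371-fold ratio with a counting interval of 126 to 1808 (adjusted p = 0.00605). One cell held 100% of them in control skin 1 and 98.3% in control skin 2. Cpa3, a carboxypeptidase, had 9, 143, 0 and 2 UMIs, a 219-fold ratio with a counting interval of 59.7 to 1827 (adjusted p = 0.0176). Cma1, a further chymase, stood at 38.3, 99.1, 0.726 and 1.57 CPM (adjusted p = 0.00794). In control skin 1, 1 cell held 100% of the Cpa3 and Cma1 UMIs, and in control skin 2, 1 cell held 99.3% and 97.3%. Among the other marker lists, T cell markers summed to 34.9, 30.6, 19.97 and 72.1 CPM and NK cell markers to 3.49, 4.51, 5.45 and 88.6 CPM, with Gzma at 32.9 CPM in tumor 2. The markers of fibroblasts, keratinocytes and plasmacytoid dendritic cells summed to at most 3.92, 14.1 and 3.60 CPM in any library, and those of red cells were at 0. Neutrophil markers summed to 300, 431, 307 and 521 CPM, with Il1r2 the most abundant at 153, 153, 128 and 130.1 CPM and with Retnlg, Camp and Ngp at 0. Markers of type 2 dendritic cells summed to 439, 372, 219 and 257 CPM, led by Tnip3. The part of these cells in the results above, beyond the fit without the 7 cells, was not tested.

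The tumor difference in monocyte-like cells was then set against that in C1q-high macrophages of the same libraries, with the library as a term of the model. Of 9754 genes tested, 23 had a more positive difference in monocyte-like cells (0.236%) and 18 a more negative one (0.185%). Both kinds of cell come from the same control and tumor libraries, so their own values are given side by side. Cxcl9 was at 246, 1.47, 1021 and 645 CPM in C1q-high macrophages, so that the tumor levels of the 2 kinds of cell were of similar size, while control skin 1 had the transcript in the macrophages and not in the monocyte-like cells (difference of log2 fold changes 10.91, SE 1.22, adjusted p = 0.0101). Since Cxcl9 was at 0 in the control monocyte-like cells, the size of this difference has no meaning beyond its sign. AA467197 was at 120, 69.9, 67.2 and 170 CPM in C1q-high macrophages (difference 5.38, SE 0.50, adjusted p = 0.0027). Slc37a2, a sugar phosphate exchanger, was at 3.54, 19.3, 58.9 and 58.3 CPM in monocyte-like cells and 90.1, 144, 109 and 82.0 CPM in the macrophages (difference 2.40, SE 0.39, adjusted p = 0.0323). Gpr141, an orphan receptor, differed by 2.21 (SE 0.28, adjusted p = 0.0101), and Pcdh7, a protocadherin, by 3.17 (SE 0.55, adjusted p = 0.0388). Pcdh7 was lower in tumors in monocyte-like cells, so its positive difference stands for a smaller fall.

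Among genes with a more negative difference, Slpi, a secreted inhibitor of neutrophil elastase, was at 1741, 735, 326 and 554 CPM in monocyte-like cells and 14.1, 18.0, 22.3 and 91.5 CPM in C1q-high macrophages (difference -2.76, SE 0.49, adjusted p = 0.0432). Fcrls differed by -2.80 (SE 0.37, adjusted p = 0.012), with 95.1, 171, 62.4 and 81.3 CPM in the macrophages. The mast cell genes Mcpt4, Cpa3 and Cma1 also had a more negative difference. Many of the genes that rose in monocyte-like cells did not differ past the threshold. Il1b was at 286, 291, 1101 and 1443 CPM in C1q-high macrophages (difference 0.16, SE 0.17, adjusted p = 0.849). Gbp2 differed by 1.28 (SE 0.57, adjusted p = 0.524), Cd274 by 0.37 (SE 0.24, adjusted p = 0.72) and Isg15 by 0.37 (SE 0.46, adjusted p = 0.874). A p that misses the threshold does not show that the 2 kinds of cell responded alike.

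Against the 395 Cd209a Flt3 cells, a gate on dendritic cell genes with at least 5 UMIs of Cd209a and Flt3 together and under 10 of C1q, the differences were more numerous. Of 9426 genes tested, 187 were more positive in monocyte-like cells (1.98%) and 52 more negative (0.552%). Il1b, named here after its values were seen, was at 1029, 1118, 694 and 934 CPM in the Cd209a Flt3 cells, where the tumors were below the control skins (difference 2.72, SE 0.18, adjusted p = 0.000439). Lyz1, a lysozyme, was at 674, 595, 53.2 and 184 CPM in monocyte-like cells and 644, 320, 1.03 and 3.53 CPM in the others (difference 5.14, SE 0.45, adjusted p = 0.00115). The richest cell held 64.8% and 66.8% of the Lyz1 UMIs in the tumors. Lpl differed by 4.40 (SE 0.70, adjusted p = 0.0128) and Pcdh7 by 6.08 (SE 0.71, adjusted p = 0.00271). In monocyte-like cells Lyz1, Lpl and Pcdh7 were lower in both tumors than in both control skins, so these positive differences stand for a smaller fall. Of the Pcdh7 UMIs of monocyte-like cells, 1 cell held 86.7% in tumor 1 and 50% in tumor 2. Ccl5, a chemokine of activated T cells and dendritic cells, was at 2.32, 6.64, 667 and 609 CPM in the Cd209a Flt3 cells. In monocyte-like cells it was at 3.47, 114, 291 and 316 CPM (difference -4.74, SE 0.51, adjusted p = 0.00253). One monocyte-like cell held 90.5% of the Ccl5 UMIs in control skin 2, and the difference was not tested without that cell. Ifitm6, a membrane protein of monocytes and neutrophils, was at 188, 192, 134 and 50.2 CPM in monocyte-like cells and 3.48, 15.2, 78.1 and 74.1 CPM in the others (difference -4.10, SE 0.61, adjusted p = 0.00934). Slc7a2, an arginine transporter, had 0, 0, 28 and 130 UMIs in monocyte-like cells and 1.74, 2.37, 0.514 and 0 CPM in the others (adjusted p = 0.0385).

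**Figure D5:**
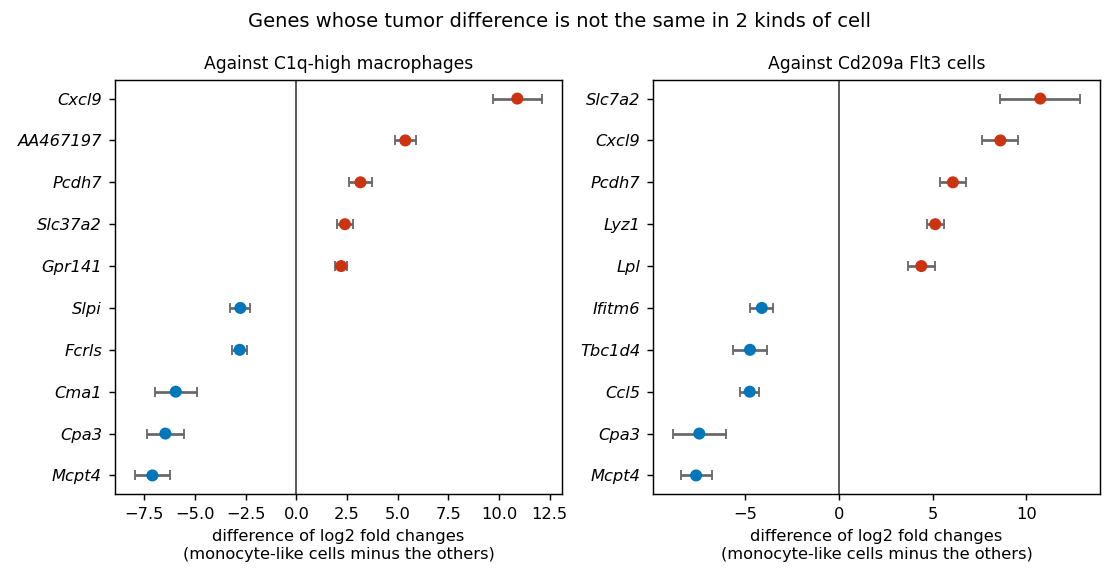
Difference of log2 fold changes (tumor over control skin) between monocyte-like cells and C1q-high macrophages (left) or Cd209a Flt3 cells (right), for the 5 called genes with the largest difference in each direction among those with at least 50 CPM in monocyte-like cells of the higher group and tumors and control skins that do not overlap in these cells. Points are fitted differences and bars their SE. Cxcl9 lies at 10.91 and 8.61, and the mast cell gene Mcpt4 at -7.11 and -7.60.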

How the data were processed

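Each of the 4 libraries was deposited by the authors as a matrix of raw UMI counts from Cell Ranger on mm10 (version 7.1.0 in the submitters' processing notes and 7.0.1 in the file headers), not normalized. Whether intronic reads were counted is not given in the sources used here. Counts were summed over the members of each library and tested with edgeR 4.0.16 (R 4.3.3; quasi-likelihood test, TMM factors, filterByExpr, all 4 libraries, no replicate block), with Benjamini-Hochberg adjustment over all genes tested except the 14 gate genes, and a threshold of 0.05. SEs were derived from the log2 fold change and the F statistic. The difference between 2 gates was tested on the 8 sums with library, gate and gate by tumor terms. Shares have 95% Clopper-Pearson intervals, and floors are 3 counts over a group, both for counting error only. Doublets were kept. Scrublet (scanpy 1.11.5) scored 0, 1, 4 and 3 members as doublets, which were left out in an alternative. Further alternatives were DESeq2 1.42.0, RLE factors, no filter, other gates, thinning to 2000 UMIs and each library left out.

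The members and the 35 gene lists were chosen with earlier results of these data known. Named genes are the gate genes, the 12 called genes with the largest change in each direction (at least 50 CPM in the higher group, groups not overlapping, no immunoglobulin, T cell receptor, mitochondrial, ribosomal, sex, Gm or Rik gene), up to 4 called and the 2 most abundant members of each list, and the 5 genes with the largest difference in each direction between gates under the same conditions. Others were chosen after their values were seen. Replicates differed by more than sampling noise (chi-square per degree of freedom 4.21 in control skins and 12.9 in tumors). One condition of the gate and some genes are not reported here.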

Additional observations from a re-analysis of the deposited data

Results flagged for a closer look

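For the 5 genes named in each direction and against each of 2 other kinds of cell, 20 results in all, the tumor effect (log2 fold change of tumor over control skin) differed from that in monocyte-like cells by edgeR's interaction test with an adjusted p under 0.05. They are the largest among called genes with at least 50 CPM in monocyte-like cells of the higher group and groups that do not overlap in these cells. Genes outside these conditions, such as Gpnmb and Ccl8, differed by more than some of them. Against C1q-high macrophages, the effect in monocyte-like cells was higher by 10.91 for Cxcl9, 5.38 for AA467197, 3.17 for Pcdh7, 2.40 for Slc37a2 and 2.21 for Gpr141. The differences were -7.11 for Mcpt4, -6.46 for Cpa3, -5.95 for Cma1, -2.80 for Fcrls and -2.76 for Slpi. Against Cd209a Flt3 cells, the effect was higher by 10.74 for Slc7a2, 8.61 for Cxcl9, 6.08 for Pcdh7, 5.14 for Lyz1 and 4.40 for Lpl. In monocyte-like cells Pcdh7, Lyz1 and Lpl were lower in both tumors than in both control skins, so their positive differences stand for a smaller fall. The differences were -7.60 for Mcpt4, -7.43 for Cpa3, -4.74 for Ccl5, -4.73 for Tbc1d4 and -4.10 for Ifitm6. Cxcl9 and Slc7a2 were at 0 in the monocyte-like cells of both control skins, so the sizes of their differences depend on the fit. The Mcpt4, Cpa3 and Cma1 UMIs of the control members lay almost all in 1 cell per library. For Ccl5, 1 cell held 90.5% of the UMIs in control skin 2, and for Tbc1d4 99% in control skin 1. Of the Lyz1 and Pcdh7 UMIs, 1 cell held at least 50% in each tumor.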

How the results depend on the processing

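The control skins held 18 and 69 of the cells. None of 36 called genes followed across the alternatives reversed where it could be fitted. With 1 library left out, which leaves an arm with 1 library assumed to vary like the others, genes higher in tumors numbered 6 to 212 (35 with all libraries), genes lower 12 to 181 (34) and interferon gamma genes higher 2 to 27 (9). Without control skin 1 or without control skin 2, 2 interferon gamma genes were called. Tumor effects above and below those in C1q-high macrophages numbered 71 to 246 (23) and 41 to 121 (18), and against Cd209a Flt3 cells 127 to 442 (187) and 40 to 135 (52). Without the filter on low counts the calls were 263 higher, 161 lower, 25 interferon gamma genes, 145 and 88 against C1q-high macrophages, and 544 and 166 against Cd209a Flt3 cells. A gate on UMIs scaled per cell gave 3 higher, 15 lower and 1 interferon gamma gene. Cells thinned to 2000 UMIs gave 15 lower and 2 interferon gamma genes, 61 above C1q-high macrophages, and 76 and 25 against Cd209a Flt3 cells. DESeq2 called 52 higher and 53 lower. Without the 7 members rich in Cd207 or mast cell proteases, an alternative chosen after seeing the data, 16 genes were higher, 7 lower and 5 interferon gamma genes higher. The cause of these moves was not tested. With the replicate number as a block, 59 genes were higher and 48 lower, and all 69 calls were kept. The labels do not say that a number pairs a control skin with a tumor, and deviations of same-numbered libraries correlated at 0.019 over genes. Of the 36 genes, 15 kept their call without control skin 1, 10 of 34 without control skin 2, 7 of 33 under the gate on scaled UMIs and 14 of 28 without the members rich in Cd207 or mast cell proteases. The difference in the share of monocyte-like cells (3.10 points) was 2.33 to 3.21 under the other gates and filters and 2.30 to 3.89 with 1 library left out.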

Other observations

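Further lists showed little movement. Of 23 transcription factor genes of monocytes and macrophages none was called, with a median log2 fold change of -0.05. Irf8, which monocytes and dendritic cells need to develop, was at 94.1, 97.3, 217 and 299 CPM (edgeR adjusted p = 0.0558), and Cebpb, a factor of inflammatory myeloid cells, at 2370, 2311, 1710 and 1996 CPM (adjusted p = 0.661). Of 13 adhesion genes none was called, and the hyaluronan receptor gene Cd44 was at 1495, 1515, 789 and 1067 CPM (adjusted p = 0.303). Of 19 pattern recognition receptor genes Clec4n rose. Of 21 genes listed as effectors of tumor macrophages, Cd274 rose and Lpl fell. Over all genes tested, 0.458% were higher and 0.445% lower. The collagenase gene Mmp14 was at 6.97, 27.9, 72.6 and 146 CPM (adjusted p = 0.109), and the osteopontin gene Spp1 at 62.7, 252, 70.1 and 292 CPM, where replicates differed more than groups.

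A pair of genes outside the naming rule, chosen after their values were seen, differed from C1q-high macrophages. Ccl8, a chemokine of tissue macrophages, was at 0, 118, 23.6 and 36.0 CPM in monocyte-like cells and 62.8, 475, 1793 and 1519 CPM in C1q-high macrophages (difference -3.66, SE 0.45, adjusted p = 0.0101). In control skin 2, 1 cell held 94.5% of the Ccl8 UMIs of monocyte-like cells, and the difference was not tested without it. Gpnmb, a glycoprotein of lipid-laden macrophages, was at 35.4, 104, 52.6 and 161 CPM in the former and 184, 728, 11.4 and 42.0 CPM in the latter (difference 4.78, SE 0.27, adjusted p = 3.3e-05). In tumor 2, the Fn1 members, with under 5 UMIs of Plac8 and Ly6c2 together, held 151 of the Gpnmb UMIs.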
